A study of Mus musculus with 8 samples.

Results

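The type I interferon ligand genes described here are Ifnb1, Ifna4, Ifna5, Ifna13, Ifnab, Ifna2, Ifna12 and Ifna9, which code for interferon beta and for members of the interferon alpha family. They were picked by symbol, with earlier results of these arrays known, among them the comparison of knockout with control cells on day 7. Whether the day 9 values were also used is not known. A probe was assigned to a gene when the RefSeq accession it carries maps to that symbol. On this basis 10 of the 55681 probes on the array stood for 7 of the 8 genes, and 0 probes matched Ifna9. Ifnab, Ifna2 and Ifna12 had 2 probes each and the others 1.

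RNA was measured on 8 one-colour Agilent arrays. The cells were motor neurons grown from a male Hb9GFP mouse embryonic stem cell line, in which a green fluorescent protein reports motor neurons. On each of days 7 and 9 there were 2 arrays of Litchi knockout cells and 2 of control cells, which the series design calls WT. All groups had RA/Shh (retinoic acid and Sonic hedgehog) between days 2 and 5, were dissociated from embryoid bodies on day 5 and then had GDNF, a neurotrophic factor. The labels give neither the knockout allele, nor whether the knockout line is 1 clone, nor whether replicates are separate cultures, and the p-values therefore speak only to the spread among these arrays, and this spread may be technical. No probe could be assigned to Litchi, so its level could not be checked against the labels.

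Type I interferons are secreted proteins that cells make after their sensors detect foreign or misplaced nucleic acid. The sensors act through adaptors and kinases on the transcription factors IRF3, IRF7 and NF-kB, which switch on Ifnb1 and the Ifna genes. All type I interferons bind the same receptor, IFNAR, and its kinases activate a transcription factor complex that holds IRF9, which in turn induces a large set of antiviral genes. Neurons make little interferon at rest and respond to it. The ligand genes lie side by side on mouse chromosome 4, mostly have no intron, and the Ifna genes are near copies of each other. A probe for one Ifna gene can therefore also bind RNA of another, and the probe sequences were not used here.

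The stretch before the annotated start is where the factors named above act. It is shown for the 5 genes whose annotated start does not open with the start codon. These are 150 bases before the start in RefSeq on GRCm38.p6, 5′ to 3′ on the gene's strand, at chr4:88522795-88522944 (minus strand) for Ifnb1, chr4:88841666-88841815 (plus) for Ifna4, chr4:88691269-88691418 (minus) for Ifnab, chr4:88603377-88603526 (minus) for Ifna12 and chr4:88644460-88644609 (minus) for Ifna13. Capitals mark matches, on either strand, to an IRF-type motif (GAAA, any 2 bases, then GAAA) or to an NF-kB-type motif (GGG, any 5 bases, then CC).
Ifnb1: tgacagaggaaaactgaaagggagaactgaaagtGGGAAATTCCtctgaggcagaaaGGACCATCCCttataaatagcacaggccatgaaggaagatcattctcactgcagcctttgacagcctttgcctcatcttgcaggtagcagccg
Ifna4: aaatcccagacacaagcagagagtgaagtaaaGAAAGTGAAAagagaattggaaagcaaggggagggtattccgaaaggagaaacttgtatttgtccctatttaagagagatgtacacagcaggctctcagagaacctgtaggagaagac
Ifnab: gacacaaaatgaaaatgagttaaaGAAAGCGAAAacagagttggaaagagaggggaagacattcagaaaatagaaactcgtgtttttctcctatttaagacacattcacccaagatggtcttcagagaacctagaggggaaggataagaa
Ifna12: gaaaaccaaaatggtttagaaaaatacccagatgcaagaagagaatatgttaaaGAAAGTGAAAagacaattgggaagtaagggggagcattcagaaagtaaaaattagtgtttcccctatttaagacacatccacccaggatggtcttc
Ifna13: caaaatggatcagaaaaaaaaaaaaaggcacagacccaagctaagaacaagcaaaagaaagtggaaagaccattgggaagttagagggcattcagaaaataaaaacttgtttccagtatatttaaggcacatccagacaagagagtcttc

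For all 8 genes the search ran over 250 bases before and 50 after the annotated start, on both strands. The IRF-type motif was found for 6 of the 8 genes and in 3.44% of 32851 promoters. Ifna4, Ifna12, Ifna5 and Ifna2 held the form GAAAGTGAAA, which began 118, 96, 165 and 164 bases before the start, and Ifnab held GAAAGCGAAA at 126 and Ifna9 the same letters at 166. Ifnb1 and Ifna13 had no match to the letters of this motif in the window. The NF-kB-type motif was found for 2 of the 8 genes and in 50.8% of all promoters. In Ifnb1 it read GGGAAATTCC, 116 bases before the start, and GGGATGGTCC on the other strand at 93. The other gene was Ifna9, where the only match lay after the annotated start and not before it. TATAAA was found for 2 of the 8 genes, Ifnb1 and Ifna13, and in 13.6% of all promoters. The annotated starts of Ifna5, Ifna2 and Ifna9 open with the start codon, so distances for these 3 are counted from the coding sequence and are not like those of the other 5. No match overlapped one to another of the 3 motifs. The plot of motif matches shows this arrangement.

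**Figure D1:**
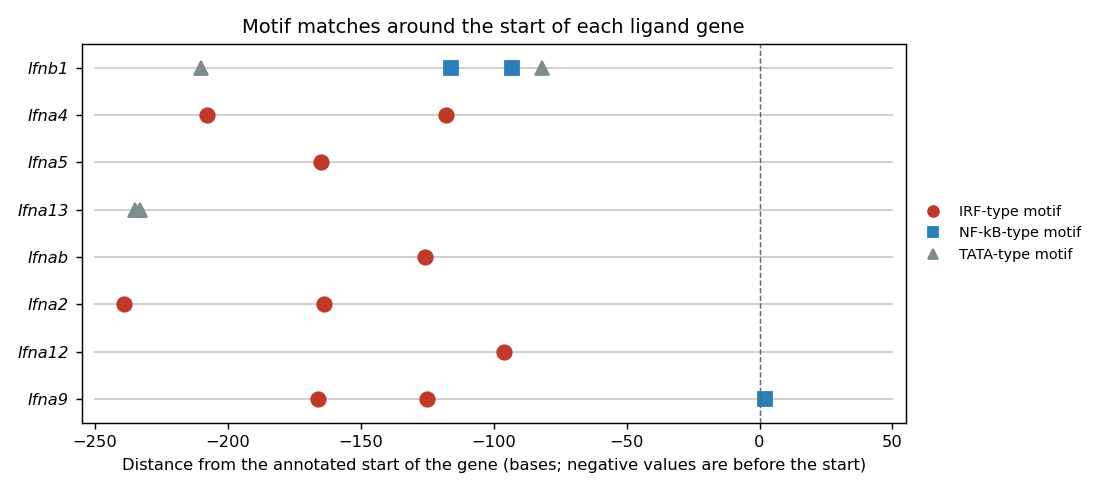
Matches to the 3 motifs around the annotated start of each of the 8 ligand genes, with the distance from the start in bases on the horizontal axis and 1 line per gene. The TATA-type motif is TATAAA. The IRF-type motif stands on 6 of the 8 lines, and on neither that of Ifnb1 nor that of Ifna13.

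Levels are given as a percentage of the 75th percentile of the processed signal over the spots of the same array. That percentile lay between 649 and 1691 intensity units, and the replicate 1 array was the brighter in each of the 4 groups. The dimmest spot called well above background by the scanner software lay between 1.24% and 3.66% of it. The ligand genes therefore sit near the floor of the arrays, and the number of arrays limits the precision. Log2 differences are from limma with their standard error (SE), and p-values are adjusted by Benjamini-Hochberg over 24632 genes, a gene being called at an adjusted p under 0.05. Because whole cultures were measured, fewer cells making a transcript and less RNA per cell cannot be told apart.

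Knockout cells held more ligand RNA than control cells on day 7, and less on day 9. In 6 of the 7 measured genes, all 4 arrays of knockout day 7 and control day 9 lay above all 4 arrays of control day 7 and knockout day 9. Ifna12, by the probe that stands for it, was the exception. Levels were summed over the 7 genes, each by the probe that stands for it. The sums came to 94.2% and 102% of the 75th percentile on the knockout arrays of day 7, against 42.9% and 42.3% on the control arrays. On day 9 the sums were 25.6% and 36.9% in knockout cells, against 90.0% and 95.1% in control cells. Of the 10 probes, 10 and 9 were well above background on the knockout arrays of day 7, against 8 and 4 on the control arrays. On day 9 this held for 5 and 5 probes in knockout cells, against 8 and 8 in control cells.

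**Figure D2:**
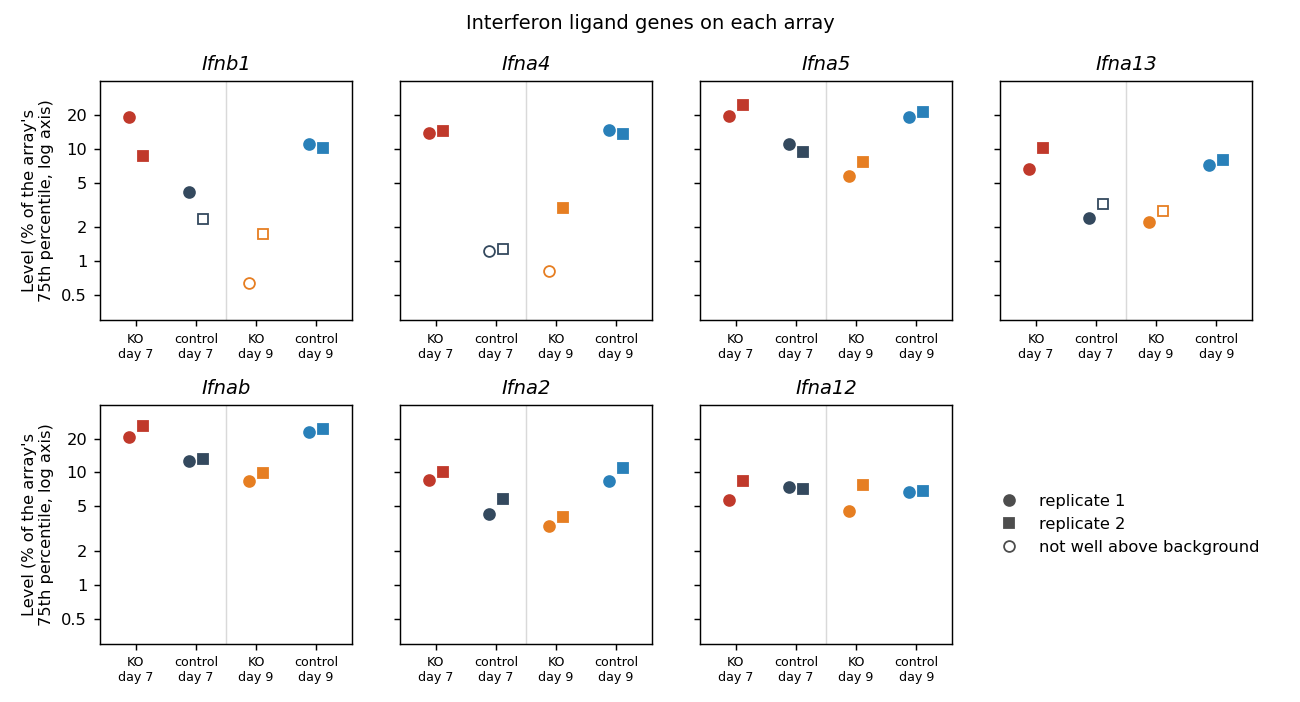
Level of the 7 measured ligand genes on each of the 8 arrays, as a percentage of the array's 75th percentile on a log axis, with circles for replicate 1, squares for replicate 2 and open symbols where the probe was not well above background. In every panel but that of Ifna12 the arrays of knockout day 7 and control day 9 lie above those of control day 7 and knockout day 9.

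Ifnb1 codes for interferon beta, which many cell types release first and which then induces the alpha genes. Its level was 19.3% and 8.63% on the knockout arrays of day 7, against 4.12% and 2.37% on the control arrays of that day. Day 9 levels were 0.638% and 1.76% in knockout cells, against 11.1% and 10.1% in control cells. The groups did not overlap on either day, and the probe was not well above background on 1 control array of day 7 and on both knockout arrays of day 9. On day 7 the log2 difference was 2.05 ± 0.57, which is a description, since that contrast helped to pick the genes. On day 9 Ifnb1 fell in knockout cells, by at least 5.93-fold (limma adjusted p = 0.0330). Its probe was kept for the test only through knockout day 7 and control day 9, the groups where it was high. This p-value is therefore not independent of that filter. Whether day 9 values helped to pick the genes is not known, which limits the day 9 p-value of every ligand gene below as well.

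Ifna4 is one of the mouse alpha genes that IRF3 can switch on early, together with Ifnb1. It stood at 13.7% and 14.4% on the knockout arrays of day 7, against 1.22% and 1.29% on the control arrays. Its day 9 levels were 0.811% and 2.96% in knockout cells, against 14.7% and 13.6% in control cells. Both control arrays of day 7 and 1 knockout array of day 9 were not well above background, and the groups were apart on both days. The day 7 difference was at least 6.59-fold, with no test, and this bound was 3.83 without replicate 1 and 11.3 without replicate 2 of control day 7. On day 9 Ifna4 fell by 3.19 ± 0.53 on the log2 scale (limma adjusted p = 0.0303). This p-value has the limit given for Ifnb1, since the Ifna4 probe was kept only through knockout day 7 and control day 9.

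Ifna5, a further alpha gene, was well above background on all 8 arrays. It stood at 19.4% and 24.3% on the knockout arrays of day 7, against 10.9% and 9.27% on the control arrays. The arrays of day 9 gave 5.71% and 7.69% in knockout cells, against 19.0% and 21.2% in control cells. Groups did not overlap on either day, with a log2 difference of 1.11 ± 0.20 on day 7. On day 9 Ifna5 fell by 1.60 ± 0.20 (limma adjusted p = 0.0197).

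Ifna13 had a level of 6.60% and 10.2% on the knockout arrays of day 7, against 2.41% and 3.23% on the control arrays. On day 9 it had 2.25% and 2.78% in knockout cells, against 7.21% and 7.94% in control cells. Replicate 2 of control day 7 and replicate 2 of knockout day 9 were not well above background. The log2 difference was 1.56 ± 0.26 on day 7, and on day 9 Ifna13 fell by 1.60 ± 0.26 (limma adjusted p = 0.0288). The Ifna13 probe too was kept only through knockout day 7 and control day 9, so this p-value is not independent of that filter.

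Ifnab and Ifna2 were each well above background on all 8 arrays by the probe that stands for the gene. Ifnab stood at 20.8% and 25.9% on the knockout arrays of day 7, against 12.6% and 13.3% on the control arrays, and on day 9 at 8.38% and 9.88% in knockout cells, against 23.0% and 24.4% in control cells. Ifna2 stood at 8.53% and 10.2% on the knockout arrays of day 7, against 4.31% and 5.75% on the control arrays, and on day 9 at 3.31% and 4.04% in knockout cells, against 8.41% and 11.1% in control cells. Both genes kept the groups apart on both days. Their log2 differences on day 7 were 0.85 ± 0.16 for Ifnab and 0.90 ± 0.22 for Ifna2. On day 9 Ifnab fell by 1.38 ± 0.16 (limma adjusted p = 0.0179), and Ifna2 by 1.40 ± 0.22 (0.0283).

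Ifna12 did not share this pattern by the probe that stands for it. It had 5.74% and 8.42% on the knockout arrays of day 7, against 7.40% and 7.12% on the control arrays. On day 9 it had 4.53% and 7.81% in knockout cells, against 6.68% and 6.89% in control cells. The groups overlapped on both days, with log2 differences of -0.062 ± 0.29 on day 7 and -0.19 ± 0.29 on day 9 (limma adjusted p = 0.719). The sign of both turned with the scaling, to 0.051 and 0.025 after quantile normalization.

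The second probes of Ifna12, Ifna2 and Ifnab were read separately, since near copies can share targets. The second probe of Ifna12 had 6.05% and 6.63% on the knockout arrays of day 7, against 3.94% and 2.47% on the control arrays, of which replicate 2 was not well above background. Day 9 gave 1.32% and 1.33% in knockout cells, neither well above background, against 6.91% and 8.19% in control cells. This is at least 4.18-fold lower, with no test of this probe. The 2 probes of Ifna12 thus disagreed, the second lying in the order of the other ligand genes. Over the mean of both probes, the Ifna12 difference on day 7 became 0.48, and that on day 9 stayed negative, as it was for each probe.

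The second probe of Ifna2 was well above background on 1 of the 8 arrays, replicate 1 of knockout day 7, at 2.59%, and gives no fold between genotypes. The second probe of Ifnab had 3.11% and 25.6% on the knockout arrays of day 7, against 3.02% and 3.64% on the control arrays. The highest of these, from replicate 2 of the knockout, stood apart from the other 7 arrays, and the groups overlapped. On day 9 this probe was not well above background on any array, so it gives no fold there, while the first Ifnab probe differed between genotypes.

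**Figure D3:**
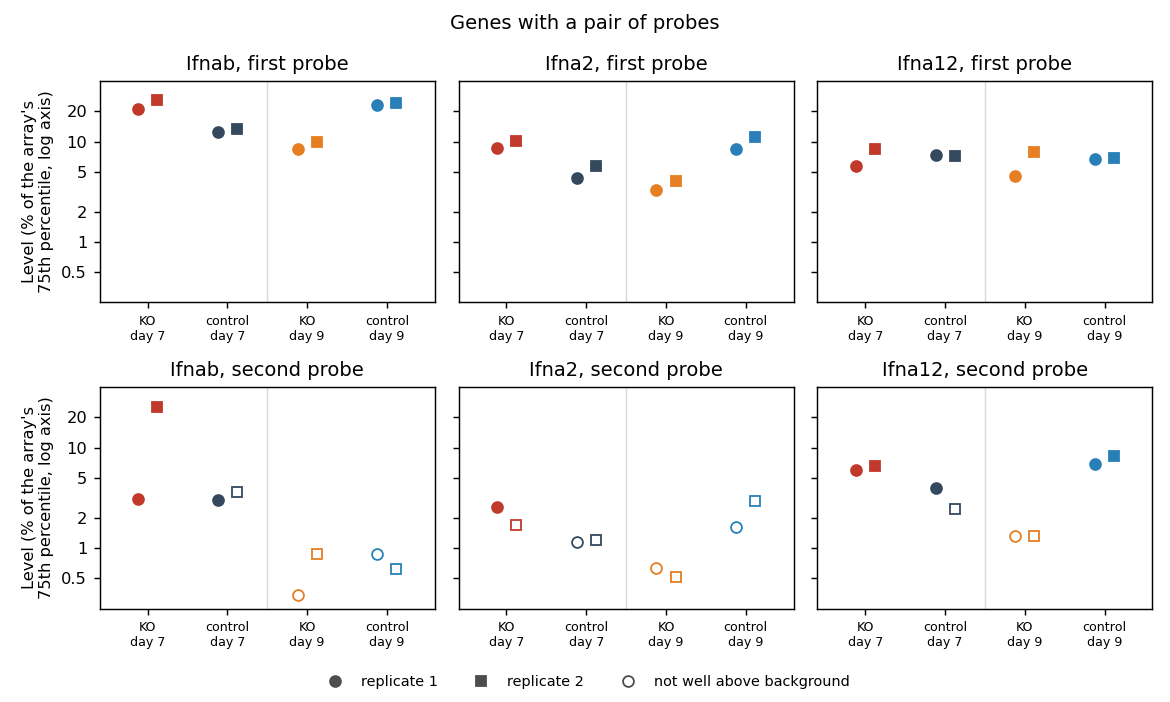
Both probes of Ifnab, Ifna2 and Ifna12 on each array, as a percentage of the array's 75th percentile on a log axis, with circles for replicate 1, squares for replicate 2 and open symbols where a probe was not well above background. The upper row holds the probe that stands for the gene, and the second probe of Ifna12 separates the groups where its first does not.

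Of the 7 ligand genes tested, 6 were called lower in knockout cells on day 9, where 3.96% of all genes were called lower and 5.47% in either direction. The day 9 values may also have helped to pick the genes, so these calls may not be independent of that choice. The median difference was -1.60 over the 7 genes and -0.022 over all genes tested. On day 7 0.215% of all genes were called, 0.0974% higher and 0.118% lower, and the median was 1.11 over the 7 genes and -0.047 over all genes. Ifnb1, Ifna4 and Ifna13 passed the filter on dim probes only through knockout day 7 and control day 9, the groups where they were high. Their calls are therefore not independent of that filter. The day 9 calls rest on every array of that day. They became 0 without replicate 1 of control day 9 and 1 without any of the other 3 arrays of day 9, and 0 under normexp background correction, without a filter on dim probes or in a fit of the day 9 arrays alone, while the 6 differences kept their sign.

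The change between days reuses the day 7 values by which the genes were picked, so it is a description within each genotype, with no test and no count of calls. In knockout cells the median of day 9 minus day 7 was -1.71 over the 7 genes and -0.12 over all genes. In control cells it was 0.99 over the 7 genes and -0.12 over all genes.

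In knockout cells, Ifnb1 was at least 7.26-fold lower on day 9 than on day 7. The log2 differences there were -3.18 ± 0.53 for Ifna4, -1.71 ± 0.20 for Ifna5, -1.71 ± 0.26 for Ifna13, -1.35 ± 0.16 for Ifnab and -1.35 ± 0.22 for Ifna2. In control cells, Ifna4 was at least 6.64-fold higher on day 9, a bound between 3.86 and 11.4 without single arrays of control day 7. The other differences in control cells were 1.75 ± 0.57 for Ifnb1, 1.44 ± 0.26 for Ifna13, 0.99 ± 0.20 for Ifna5, 0.95 ± 0.22 for Ifna2 and 0.88 ± 0.16 for Ifnab. Ifna12 was negative in both, at -0.23 ± 0.29 in knockout cells and -0.099 ± 0.29 in control cells.

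**Figure D4:**
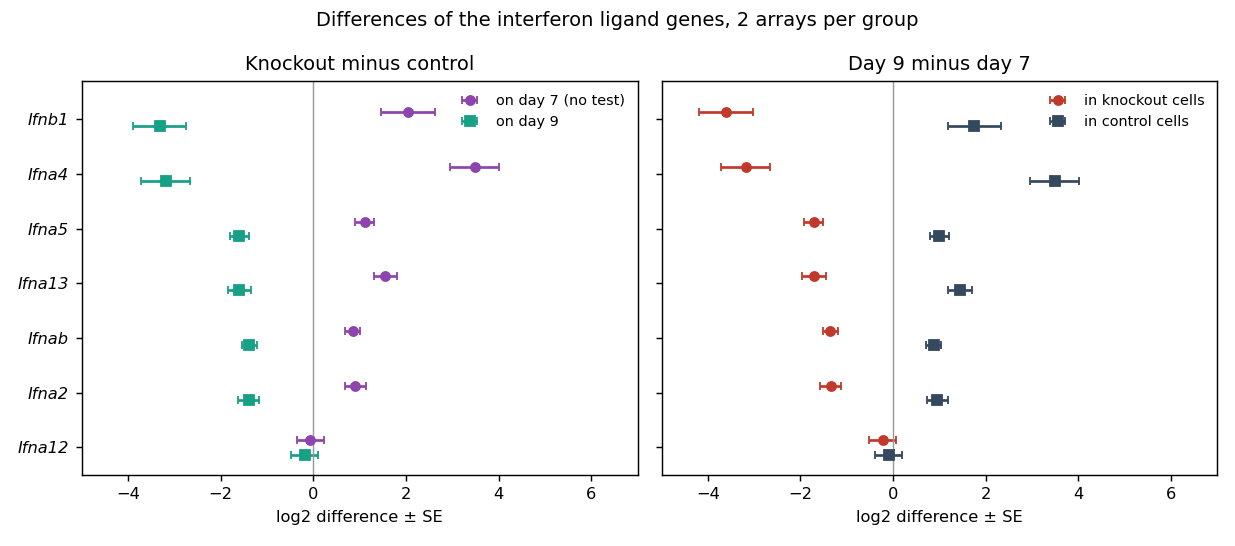
Log2 differences of the 7 ligand genes with their SE, knockout minus control on day 7 and day 9 at left, and day 9 minus day 7 in knockout and in control cells at right, from 2 arrays per group, tested only for knockout minus control on day 9. The values for 6 genes lie on opposite sides of 0 for the 2 days at left and for the 2 genotypes at right, and Ifna12 lies near 0 throughout.

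Ordered by mean level, knockout day 7 and control day 9 took the upper places for the 6 genes and overlapped each other in every case. For Ifna5, Ifnab and Ifna2, which were well above background on all arrays, control day 7 came next and knockout day 9 came last and apart from it. For Ifnb1, Ifna4 and Ifna13 some arrays of both lower groups were not well above background, so these groups have no order. For Ifna12 all 4 groups overlapped their neighbours.

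The remaining interferon ligands were read from a list of 13 genes, of which 9 had a probe and 4 were tested. Ifna16, another alpha gene, stood at 4.07% and 4.48% on the knockout arrays of day 7, against 1.27% and 0.733% on the control arrays, and on day 9 at 0.474% and 1.18% in knockout cells, against 4.91% and 4.84% in control cells. It was at least 2.74-fold lower in knockout cells on day 9 (limma adjusted p = 0.0292), with neither knockout array well above background. Ifna16 passed the filter on dim probes only through knockout day 7 and control day 9, the groups where it was high. The knockout minus control difference on day 9, less that on day 7, was -4.85 for Ifna16, which did not pass (interaction term, limma adjusted p = 0.318). Ifna1 fell by 1.01 ± 0.14 on day 9 (limma adjusted p = 0.0208) and Ifna14 by 0.98 ± 0.18 (0.0352). These genes also fell between days in knockout cells, Ifna1 by 1.10 ± 0.14 (limma adjusted p = 0.00859), Ifna14 by 1.09 ± 0.18 (0.0174) and Ifna16 by at least 2.40-fold (0.0224), and Ifna16 rose by 2.34 ± 0.44 in control cells (0.0325). On day 7 none of the 4 passed by limma, and Ifna14 differed by -0.18 ± 0.18 (limma adjusted p = 0.625). At an unadjusted p under 0.05, 2 of the 4 were higher on day 7, where 4660 of 24632 genes passed in either direction.

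The remaining listed ligands gave no call. Ifnl3, a type III interferon, stood at 13.2% and 16.4% on the knockout arrays of day 7, against 16.5% and 19.2% on the control arrays, and on day 9 at 14.4% and 15.0% in knockout cells, against 18.0% and 19.6% in control cells. Its difference on day 9 was -0.35 ± 0.16 (limma adjusted p = 0.231). Ifng, the type II interferon of lymphocytes, and Ifne, a type I interferon of the reproductive tract, were not well above background on any of the 8 arrays. Ifna7, Ifna11 and Ifnk did not pass the filter on dim probes.

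Genes whose log2 level was most like that of Ifnb1 over the 8 arrays, among 15035 candidates with a symbol, were Gabrd (Pearson r = 0.962), Bfsp2 (0.943), Ifna5 (0.943), Klf14 (0.940), Ifna16 (0.933) and Ifnab (0.917). For Ifna4 they were Ifna16 (0.971), Pla2g12a (0.966), Ifna13 (0.949), Ifna5 (0.916), Pfn4 (0.912) and Ifnab (0.911). Ifna2 ranked 10 and Ifna4 ranked 11 for Ifnb1, and Ifna12 ranked 2517. All 8 points share their arrays across genes, and r says nothing of size. The points include the day 7 values by which the members were picked, and near copies can share probe targets. Ranks of members are therefore not independent of that choice. Pla2g12a, a secreted phospholipase gene, ranged from 109% to 128%, while Ifna4 ranged from 0.811% to 14.7%. Gabrd, a subunit of the GABA receptor, lay between 2.05% and 4.08%, near the background.

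Of the 6 receptor genes, 0 were called between genotypes by limma, with 1 lower on day 7 and 1 higher and 1 lower on day 9 at an unadjusted p under 0.05. Such a p was held by 4660 of 24632 genes on day 7 and by 6329 on day 9, in either direction. Ifnar1, a chain of the type I receptor, had 582% and 515% on the knockout arrays of day 7, against 820% and 646% on the control arrays, and on day 9 640% and 598% in knockout cells, against 678% and 639% in control cells. Ifnar2, its partner chain, had 142% and 140% on the knockout arrays of day 7, against 130% and 115% on the control arrays, and on day 9 182% and 163% in knockout cells, against 127% and 157% in control cells. Both chains were well above background on all arrays, and neither was called in any of the 4 comparisons, the differences on day 9 being -0.090 ± 0.16 for Ifnar1 (limma adjusted p = 0.761) and 0.29 ± 0.16 for Ifnar2 (0.298). The interferon gamma receptor chains Ifngr1 and Ifngr2 differed by 0.45 ± 0.16 (limma adjusted p = 0.145) and -0.34 ± 0.13 (0.164) on day 9. The type III receptor chain Ifnlr1 differed by -0.11 ± 0.53 (0.914) and its partner Il10rb by 0.13 ± 0.28 (0.803). Between days 1 of the 6 was called, Il10rb, with a rise of 1.31 ± 0.28 in control cells (limma adjusted p = 0.0431), where 4.11% of all genes rose.

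Of the 6 genes that carry the receptor signal, none passed between genotypes by limma on either day, with 3 higher and 1 lower at an unadjusted p under 0.05 on day 7 and 0 on day 9. By that measure 4660 of 24632 genes passed on day 7 and 6329 on day 9, in either direction. Irf9, a DNA-binding part of the complex that the receptor activates, had 1092% and 996% on the knockout arrays of day 7, against 481% and 377% on the control arrays, and on day 9 1640% and 1524% in knockout cells, against 1263% and 1622% in control cells. The groups were apart on day 7, with a difference of 1.29 ± 0.19 (limma adjusted p = 0.0668), and overlapped on day 9, at 0.14 ± 0.19 (0.667). Irf9 rose between days in control cells, by 1.75 ± 0.19 (limma adjusted p = 0.00883). Stat2, another part of that complex, stood at 0.33 ± 0.31 between genotypes on day 9 (0.546). The kinases Jak1 (-0.25 ± 0.13, limma adjusted p = 0.283), Tyk2 (0.32 ± 0.20, 0.362) and Jak2 (-0.16 ± 0.19, 0.628) were not called in any comparison.

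Among 15 transcription factors and cofactors that act on ligand genes, none was called between genotypes by limma, with 2 higher on day 7 and 3 higher on day 9 at an unadjusted p under 0.05. Over all 24632 genes, 4660 on day 7 and 6329 on day 9 had such a p, in either direction. Irf7, the factor that broadens production to most alpha genes and is itself induced by interferon, had 45.0% and 40.4% on the knockout arrays of day 7, against 6.88% and 3.90% on the control arrays. On day 9 it had 237% and 177% in knockout cells, against 45.5% and 188% in control cells, and knockout day 9, where the ligand genes were low, had the highest mean of Irf7. Irf7 differed by 3.04 ± 0.63 on day 7 (limma adjusted p = 0.0981) and 1.14 ± 0.63 on day 9 (0.307), and rose by 4.16 ± 0.63 between days in control cells (0.0197). Irf3, which is present in resting cells and is activated by phosphorylation, differed by 0.15 ± 0.16 on day 7 and 0.14 ± 0.16 on day 9 (limma adjusted p = 0.683 and 0.638). Nfkb1 rose by 0.71 ± 0.15 between days in control cells (limma adjusted p = 0.0402). Hmga1, which bends DNA at the Ifnb1 enhancer, fell between days in both genotypes, where 4.17% of all genes fell in knockout cells and 3.26% in control cells, by 1.21 ± 0.23 in knockout cells (0.0292) and 1.27 ± 0.23 in control cells (0.0302). Jun, another factor of that enhancer, differed by -0.16 ± 0.23 on day 9 (0.708).

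Of 16 tested nucleic acid sensors and adaptors, 2 were called between genotypes on day 9, where 1.51% of all genes were called higher, and 0 on day 7 by limma, where 8 were higher and 1 lower at an unadjusted p under 0.05. That unadjusted p was reached on day 7 by 4660 of 24632 genes, in either direction. Sting1, the adaptor of the DNA sensor Cgas, had 66.8% and 51.5% in knockout cells on day 9, against 24.9% and 26.0% in control cells, a rise of 1.21 ± 0.22 (limma adjusted p = 0.0370). Mavs, the mitochondrial adaptor of the RNA sensors, rose by 0.69 ± 0.15 (0.0497). Sting1 also differed on day 7, by 1.14 ± 0.22, without passing (0.0953). The RNA sensors Ddx58 and Ifih1 stood at 2.13 ± 0.33 (0.0733) and 2.29 ± 0.53 (0.115) on day 7 and at 0.37 ± 0.33 (0.520) and 0.62 ± 0.53 (0.509) on day 9. In control cells 5 sensors rose between days, where 4.11% of all genes rose. Among them were the nucleic acid sensor Zbp1, by 4.86 ± 0.74 (limma adjusted p = 0.0197), Ifih1, by 3.13 ± 0.53 (0.0255), and Ddx58, by 2.50 ± 0.33 (0.0150). The endosomal sensor Tlr3 rose by at least 5.25-fold (0.0190), since neither control array of day 7 was well above background, and this bound was 3.10 without replicate 1 and 8.87 without replicate 2 of control day 7. In knockout cells 1 of the 16 rose, Tlr3, by 2.48 ± 0.52 (0.0377), where 4.15% of all genes rose. The adaptor Traf3 differed by 0.065 ± 0.17 on day 9 (0.843).

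Of 23 tested interferon-stimulated target genes, which act against viruses, 0 were called between genotypes by limma on day 7, where all 23 had positive differences, 23 had an unadjusted p under 0.05 and the median was 2.62. On day 9 0 were called by limma, 21 had positive differences, 5 were higher at an unadjusted p under 0.05 and the median was 0.85. An unadjusted p under 0.05 was held by 4660 of 24632 genes on day 7 and by 6329 on day 9, in either direction. Ifit1, which binds foreign RNA, had 271% and 237% on the knockout arrays of day 7, against 32.4% and 15.7% on the control arrays, and on day 9 938% and 647% in knockout cells, against 198% and 940% in control cells. The genotypes were apart on day 7 and overlapped on day 9, where the 2 control arrays differed more than the 2 knockout arrays. The median of the 23 targets stood 3.23 and 2.69 log2 units above the 75th percentile in knockout cells on day 9, against 1.59 and 3.23 in control cells, while the median of the 7 ligand genes was -4.92 and -4.63 in knockout cells, against -3.18 and -3.18 in control cells.

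**Figure D5:**
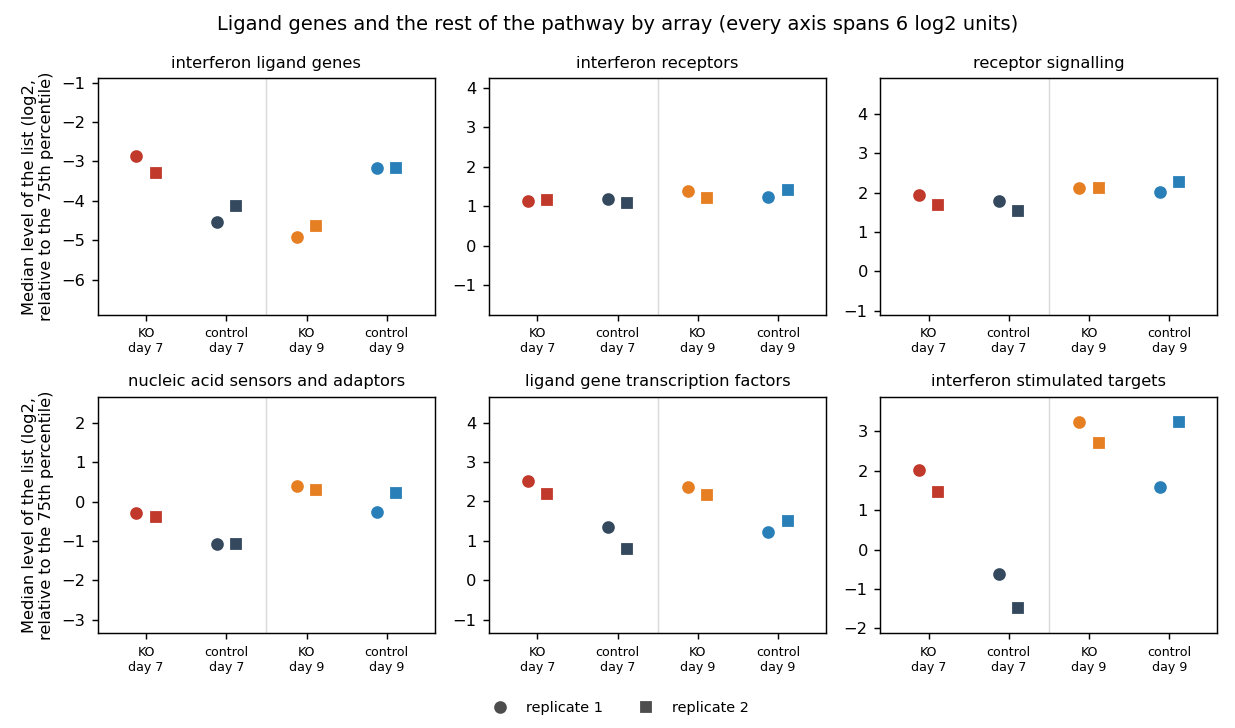
Median log2 level of the tested genes of 6 lists on each array, relative to the array's 75th percentile, with circles for replicate 1 and squares for replicate 2, each axis spanning 6 log2 units. The ligand genes are lowest in knockout cells on day 9, at -4.92 and -4.63, where the stimulated targets lie at 3.23 and 2.69.

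Between days, 20 of the 23 targets rose in control cells, with a median of 3.10, where 4.11% of all genes rose. The largest rises were those of Ifi44 (6.01 ± 0.95, limma adjusted p = 0.0213), Ifit3 (4.78 ± 0.96, 0.0382), Ifit1 (4.26 ± 0.71, 0.0244) and Oasl2 (4.26 ± 0.54, 0.0126). In knockout cells 2 rose and 1 fell, where 4.15% of all genes rose and 4.17% fell. The median of the 23 targets there was 1.79. The tethering factor Bst2 rose by 2.01 ± 0.40 (limma adjusted p = 0.0332) and the membrane protein Ifitm3 by 1.80 ± 0.41 (0.0482), while the chemokine Ccl5 fell by 1.76 ± 0.40 (0.0456). Rtp4, a chaperone of membrane receptors, stood at 1.04 ± 0.39 (0.157). None of the 80 tested pathway genes passed the interaction of genotype and day, the smallest adjusted p being 0.318.

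Of 10 genes that dampen the pathway, none was called between genotypes by limma, with 4 higher on day 7 and 0 on day 9 at an unadjusted p under 0.05. Across all 24632 genes, 4660 on day 7 and 6329 on day 9 had such a p, in either direction. In control cells 4 rose between days: Nlrc5, a regulator of antigen presentation, by 3.64 ± 0.74 (limma adjusted p = 0.0401), the ubiquitin-like Isg15 by 3.41 ± 0.46 (0.0151), Usp18, the protease that removes it and blocks IFNAR2, by 3.04 ± 0.33 (0.00896) and the JAK inhibitor Socs1 by 1.15 ± 0.26 (0.0489). Between days in control cells 4.11% of all genes rose. One of the control arrays of day 7 was not well above background for Nlrc5. In knockout cells 0 of the 10 were called by limma, with 3 higher and 1 lower at an unadjusted p under 0.05. That unadjusted p was reached between days in knockout cells by 6416 of 24632 genes, in either direction. On day 9 Usp18 had 3515% and 3029% in knockout cells, against 1994% and 3795% in control cells, a difference of 0.25 ± 0.33 (limma adjusted p = 0.678). The phosphatase Ptpn11 differed by 0.036 ± 0.18 (0.917). Over all 7 lists, 36 of the 80 pathway genes were called between days in control cells, where 7.37% of all genes were, and 8 in knockout cells, where 8.31% were. The 36 became 0 without replicate 2 of control day 7, 15 without its replicate 1, 14 without replicate 2 of control day 9 and 21 without either knockout array of day 9. The 8 became 4 without either control array of day 7, 3 and 1 without replicates 1 and 2 of knockout day 7, 0 and 2 without replicates 1 and 2 of knockout day 9, and 22 without either control array of day 9. Between genotypes 5 of the 80 were called on day 9, where 5.47% of all genes were, and this became 1 without either knockout array of day 7 and 0 without replicate 1 of control day 9 or either knockout array of day 9. On day 7 the 0 called by limma became 19 without either control array of day 9.

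Of the 8 tested genes that lie within or beside the ligand cluster on chromosome 4, 1 was called higher in knockout cells on day 9, where 1.51% of all genes were. Dmrta1, a transcription factor of neural progenitors, had 7.92% and 11.1% in knockout cells on day 9, against 3.69% and 3.25% in control cells, a rise of 1.44 ± 0.29 (limma adjusted p = 0.0464). Klhl9, a ubiquitin ligase adaptor, differed by -0.20 ± 0.14 on day 7 (limma adjusted p = 0.483) and -0.10 ± 0.14 on day 9 (0.679). On day 9 the differences of the other neighbours ran from -0.29 ± 0.13 for Mllt3 (0.214) to 0.78 ± 0.21 for the cell cycle inhibitor Cdkn2a (0.0824). On day 7 0 of the 8 were called by limma, with 3 higher at an unadjusted p under 0.05, where 4660 of 24632 genes had such a p in either direction.

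Markers of the intended cells and of other possible sources of interferon were read on the same arrays. All 6 motor neuron markers and all 6 neuron markers were well above background on all 8 arrays. Of 8 plasmacytoid dendritic cell markers, the cell type that makes most interferon in blood, Spib, Clec10a and Klk1 were not well above background on any array, Ccr9 was on 3 arrays, and Siglech (3626% to 7514%), Tcf4 (439% to 785%), Il3ra (126% to 248%) and Cd209d (5.52% to 10.2%) were on all 8. The sum of this list ran from 4599.9% to 6193% in knockout cells and from 5536% to 8254% in control cells. Of 10 macrophage and microglia markers, Tyrobp, C1qa and P2ry12 were not well above background on any array, Cx3cr1, Trem2 and Ptprc were on 1 or 2, and Itgam (81.4% to 322%), Csf1r (50.1% to 132%), Aif1 (3.71% to 5.56%) and Adgre1 (2.59% to 4.76%) were on all 8. The list's sum ran from 151% to 388% in knockout cells and from 208% to 432% in control cells. Csf1r, a growth factor receptor of that list, fell by 1.19 in knockout cells on day 9 (limma adjusted p = 0.0181). Among 6 lymphocyte markers Klrb1c was on no array, Gzmb and Cd79a were on 2 and 3, and Cd3e (37.9% to 65.4%) and Nkg7 (55.7% to 89.7%) were on all 8. The sum of this list ran from 100.2% to 151% in knockout cells and from 114% to 150% in control cells.

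Other marker lists differed between genotypes. Of 8 tested trophoblast markers 7 were called lower in knockout cells on day 9, where 3.96% of all genes were, and 2 on day 7, where 0.118% were. Ctsr, Ctsq and Tpbpb passed the filter only through control cells and were not well above background on any knockout array. With these 3 at their bound, the median differences were -3.01 on day 9 and -1.74 on day 7. The sum of the 10 trophoblast markers ran from 11187% to 12881% in knockout cells and from 15543% to 25001% in control cells, and most of it came from the probe for Gcm1, at 11083% to 24627%. Of 7 fibroblast markers 3 were called higher in knockout cells on day 9, where 1.51% of all genes were, the sum running from 4123% to 8867% in knockout cells and from 2016% to 4472% in control cells. Of 6 neural progenitor markers 3 were called higher on day 9, and of 6 motor neuron markers 1 was called higher and 3 lower, against the same shares of all genes. The median difference of each of these 4 lists had the same sign on both days, at 1.14 and 1.21 on days 7 and 9 for fibroblast, 0.10 and 1.12 for neural progenitor and -0.70 and -1.26 for motor neuron markers. Their part in the ligand levels was not tested.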

How the data were processed

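The submitters' processing notes name Agilent Feature Extraction 10.5.1 as the scanner software. Its processed signal is an intensity per spot from which background was subtracted on each array separately, per the file headers. A second deposited table holds log2 values. Its lowest correlation with the log2 of an array's own processed signal was 0.998. Its median is 5.81, its scale was read from this match, and its baseline is unknown. All arrays shared 1 slide and 1 scan time, and replicate number was the row on the slide.

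From each of the 62976 spots per array, 3671 control spots and between 104 and 166 outlier spots were left out, and 0 spots were saturated. Spots of a probe were averaged as log2 processed signal minus the array's 75th percentile. Probes were named by RefSeq accession through a mouse gene table on GRCm38.p6, which gave a symbol to 26300 of 55681 probes (47.2%). Array positions are on mm9, so that table gave names and neighbours only. Promoter sequences are those of RefSeq on GRCm38.p6, and all 8 genes had one. Probes were kept where some group had both arrays well above background, and the kept probe with the highest mean stood for its gene. limma 3.58.1 in R 4.3.3 fitted 4 group means to 8 arrays, with 4 residual and 2.53 prior degrees of freedom, two-sided. "At least N-fold" sets the bright group against the higher, per array, of the probe's own signal and the lowest signal well above background, where a probe was not well above background on either array of a group. The fit was tested on simulated data.

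The genes, lists and tests were chosen with earlier results of these data known. Named are all ligand genes and receptor and signalling genes, and of each other list the called genes, at most the 4 largest each way, and the 3 with the highest mean level. Some genes of the lists are not reported here. Alternatives covered scaling, normexp background correction (offset 50, on the median spot signal, since a mean signal column was not used here), dim-probe filters, probe choice, a replicate block, 2-group fits, the authors' table and leaving out each array.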

Additional observations from a re-analysis of the deposited data

Results flagged for a closer look

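For 6 ligand genes both knockout arrays lay above both control arrays on day 7 and below them on day 9. The knockout minus control difference on day 9, less that on day 7, was -5.36 log2 units for Ifnb1, -6.67 for Ifna4 and -3.15 for Ifna13. It was -2.71 for Ifna5, -2.30 for Ifna2 and -2.23 for Ifnab. This difference between the days was not tested for these genes, since the day 7 values helped to pick them. For Ifna4 neither array of control day 7, and for Ifnb1 neither array of knockout day 9, was well above background, so these sizes are fitted values and not measured on both sides. Single arrays of control or knockout cells were also not well above background for Ifnb1, Ifna4 and Ifna13.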

How the results depend on the processing

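For 6 ligand genes (Ifna12 aside), 1 of 396 recomputed differences changed sign: Ifnab between days in control cells, to -0.65 over the mean of its probes. Ifna12 on day 7 turned to 0.051 (quantile normalization), 0.065 (median scaling), 0.48 (mean of probes) and 0.049 (authors' table), and ran from -0.34 to 0.21 without single arrays, the highest being without replicate 1 of knockout day 7. On day 9 it turned to 0.025 (quantile), 0.039 (median) and 0.026 (authors' table), and ran from -0.58 to 0.20, the highest without replicate 1 of knockout day 9. Between days in knockout cells it ran from -0.62 to 0.17, the highest without that array, with 0.051 without replicate 2 of knockout day 7. In control cells it turned to 0.0093 (normexp) and 0.58 (mean of probes).

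The ligand median of day 7, 1.11, was 0.62 under normexp and between 0.95 and 1.27 without single arrays. Of the 6 ligand calls of day 9, 0 were left under normexp, 0 with no dim filter and 0 in a 2-group fit. With probes above background on all 8 arrays 3 were left, and there Ifnb1, Ifna4 and Ifna13 were not tested. Calls of ligand genes between days are not counted, since those comparisons reuse the day 7 values by which the genes were picked.

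The 0 pathway calls of day 7 became 9 with probes above background on all 8 arrays, 1 with a replicate block and 0 to 19 without single arrays. The 5 of day 9 became 3 (quantile), 0 (normexp), 0 (no filter), 2 (authors' table), 0 (2-group) and 0 to 6 (single arrays). The 36 of control cells became 0 (no filter), 0 (2-group) and 0 to 37 (single arrays). The 8 of knockout cells became 5 (quantile), 3 (normexp), 1 (no filter), 5 (authors' table), 25 (2-group) and 0 to 22 (single arrays).

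Of all genes, the 53 calls of day 7 became 21 (normexp), 0 (no filter), 188 (all 8 arrays), 102 (replicate block), 0 (2-group) and 0 to 125 (single arrays). The 1347 of day 9 became 2046 (median), 322 (normexp), 1 (no filter), 2031 (replicate block), 52 (2-group) and 7 to 804 (single arrays). The 1816 of control cells became 682 (normexp), 75 (no filter), 182 (2-group) and 8 to 1308 (single arrays). The 2047 of knockout cells became 871 (normexp), 480 (no filter) and 438 to 1999 (single arrays). The cause was not tested.

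Deviations of same-numbered arrays correlated between -0.25 and 0.46, with 3 of the 6 pairs of groups above 0.1. Not every pair reached 0.1, so pairing by slide row was not established, and the replicate block is an alternative only. Median scaling moved the median of all genes on day 9 to 0.21, against -0.022, and that of the ligand genes to -1.37.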
